A study of Mus musculus with 6 samples.

Results

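The genes described here are the type 1 vomeronasal receptors (V1Rs) Vmn1r55 to Vmn1r186, without Vmn1r85 and Vmn1r89. They were chosen by gene symbol alone. The annotation names 102 such genes, and 94 of the 35521 genes with estimated reads were among them. The libraries came from vomeronasal organs of mice at 60 days of age. The 3 wild-type mice were Cnpy1+/+ (mice 1 and 3 male, mouse 2 female), and the 3 knockout mice were Cnpy1-/- littermates (mice 1 and 2 male, mouse 3 female). Both organs of a mouse went into 1 poly(A)-selected directional library, and the labels name neither the strain nor how the allele was made. Each library held between 60969508 and 71670766 estimated reads. The cell types of the organ cannot be separated in such bulk RNA, so that fewer cells of a type and less RNA per cell cannot be told apart.

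V1Rs are G protein-coupled receptors of sensory neurons in the apical layer of the vomeronasal epithelium, where they detect pheromones and other chemical signals from other animals. Each neuron expresses 1 or very few of these genes, so the RNA level of a receptor in the whole organ follows both the number of neurons that chose it and the amount of RNA in each. The receptors signal through the G protein subunit Gnai2 and the channel Trpc2. The genes lie in clusters that grew by repeated duplication, and most have a single coding exon.

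Many of these receptors differ little in their coding sequence, so that reads can fit more than 1 of them. Each pair below shows the same 60 coding bases in 2 receptors, 5′ to 3′ on the coding strand (GRCm38, from the annotated transcripts), with the bases that differ in capitals. Vmn1r107 and Vmn1r130 differed at 1 of 921 coding bases, and Vmn1r94 and Vmn1r142 at 1 of 915. Vmn1r184 and Vmn1r185, both among the most abundant receptors, had 93.0% coding identity, with 67 differences, and Vmn1r57 and Vmn1r59, which had the highest log2 differences between genotypes among the better measured genes, had 95.7%, with 40 differences.
Vmn1r107 (chr7:20669223-20669282, plus strand): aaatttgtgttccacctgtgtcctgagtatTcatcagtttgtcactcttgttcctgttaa
Vmn1r130 (chr7:21512085-21512144, plus strand): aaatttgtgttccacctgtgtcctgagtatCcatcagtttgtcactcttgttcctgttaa
Vmn1r94 (chr7:20167612-20167671, minus strand): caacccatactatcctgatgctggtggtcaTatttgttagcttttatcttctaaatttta
Vmn1r142 (chr7:22163270-22163329, minus strand): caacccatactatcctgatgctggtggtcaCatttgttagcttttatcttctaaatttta
Vmn1r184 (chr7:26266836-26266895, plus strand): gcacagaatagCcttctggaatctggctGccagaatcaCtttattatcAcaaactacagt
Vmn1r185 (chr7:26612011-26612070, minus strand): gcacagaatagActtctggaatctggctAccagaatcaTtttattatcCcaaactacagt
Vmn1r57 (chr7:5220485-5220544, plus strand): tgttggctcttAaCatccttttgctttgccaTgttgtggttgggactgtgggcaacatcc
Vmn1r59 (chr7:5454693-5454752, minus strand): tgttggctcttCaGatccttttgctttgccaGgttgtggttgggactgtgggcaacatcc

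Of the 94 genes, 91 had 1 coding exon, and together they had 262 annotated transcripts. For 43 genes the transcript models held coding bases only (at most 3 others), and 51 had models with untranslated or noncoding exons. The share of a gene's 31-base words that occurred in no other gene had a median of 3.49% in the first class and 86.6% in the second. A coding identity of at least 99% to another of these receptors was found for 26 genes, and 8 of the 102 annotated genes were not in the tables and have a transcript identical to that of a listed gene (Vmn1r93, Vmn1r137, Vmn1r138, Vmn1r148, Vmn1r155, Vmn1r163, Vmn1r165 and Vmn1r166). For example, the transcript of Vmn1r93 is also that of Gm10666, which had 121, 194 and 199 reads in the wild-type mice and 182, 160 and 211 in the knockouts.

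Levels differed widely within this set, with Vmn1r86 and Vmn1r184 at the top. Levels of different genes are compared in TPM, which accounts for transcript length. The mean over the 6 mice reached 10 TPM for 5 genes and 1 TPM for 47. The 5 most abundant genes (Vmn1r86, Vmn1r184, Vmn1r185, Vmn1r71 and Vmn1r58) made up 34.2% of the summed TPM, and the first 10 made up 49.6%. The order was similar in all mice. Over the 94 genes, Spearman's correlation of TPM between 2 mice lay between 0.93 and 0.97 in the 15 pairs of mice, as a description across genes that are not independent of each other.

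Vmn1r86 was at the top, at 26.5, 29.9 and 36.8 TPM in wild-type mice 1 to 3 and at 29.2, 24.6 and 37.3 TPM in knockout mice 1 to 3. It had 5511 to 8137 reads per mouse. Its closest relative in coding sequence, Vmn1r88, in the same stretch of the chromosome, is 93.1% identical, but 87.8% of the 31-base words of Vmn1r86 were found nowhere else. Vmn1r184 came next, at 19.8, 21 and 27.8 TPM in the wild types and 23.8, 20.4 and 27.5 TPM in the knockouts. The ranges of Vmn1r86 and Vmn1r184 overlapped, although Vmn1r86 was higher in each of the 6 mice. Vmn1r185, the close relative of Vmn1r184, had 12.3, 11.8 and 18.2 TPM in the wild types and 15, 14.7 and 17.7 TPM in the knockouts. The step from Vmn1r184 to Vmn1r185 was the only one among the first 12 genes at which the ranges of neighbours in the order did not overlap.

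Vmn1r71, a V1re receptor, followed at 11.4, 12.5 and 15.3 TPM in the wild types and 14.4, 14.5 and 17.2 TPM in the knockouts. Vmn1r58, the most abundant V1rd receptor, had 9.54, 10.9 and 12.6 TPM in the wild types and 11.2, 9.57 and 12.8 TPM in the knockouts. Vmn1r71 was above Vmn1r58 in all 6 mice, again with overlapping ranges. Mouse 3 of each genotype had the highest value of its group for all 5 of these genes. The next 7 genes were Vmn1r61, Vmn1r84, Vmn1r87, Vmn1r68, Vmn1r73, Vmn1r139 and Vmn1r75, with means from 9.61 down to 6.43 TPM, and each overlapped with the next in the order. Vmn1r139 stood out among them: its only model is 753 bases long, it had 116 to 227 reads per mouse, and it ranked 11 by TPM but 46 by CPM.

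**Figure D1:**
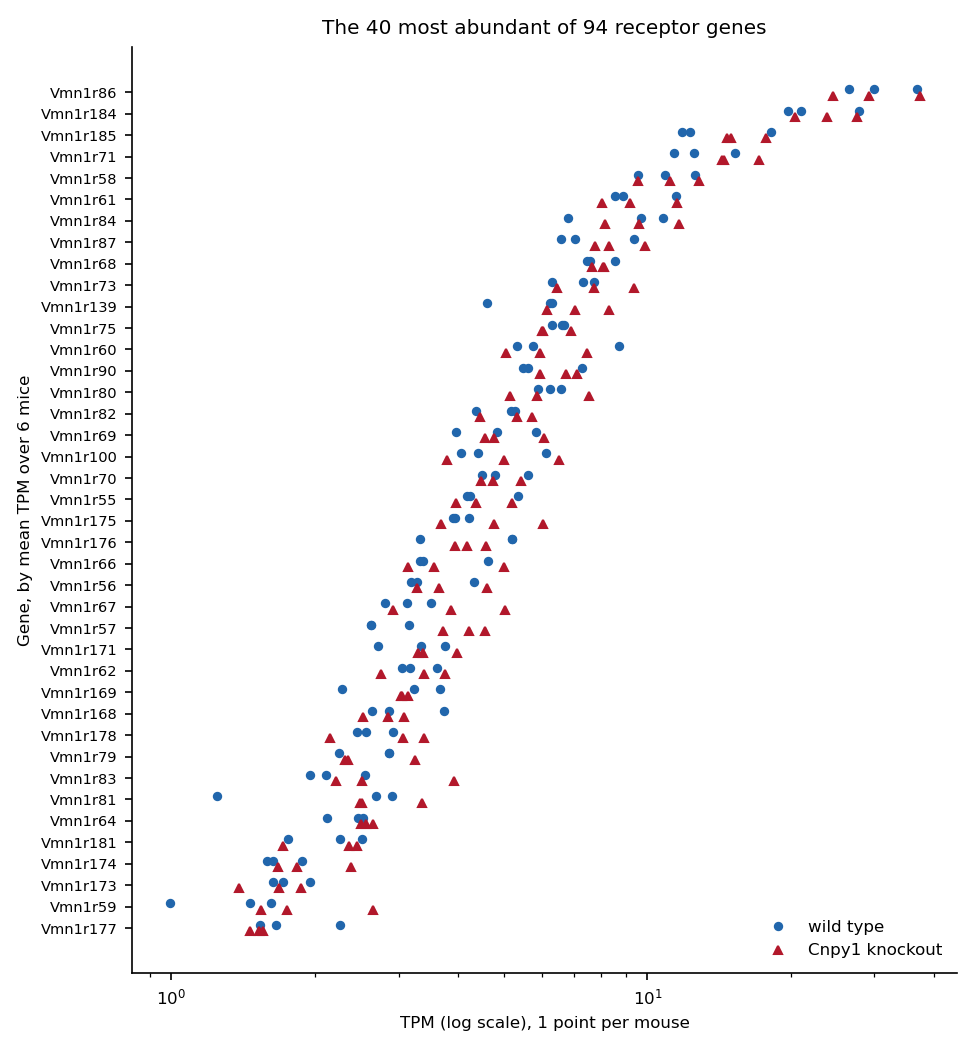
TPM (log scale) of the 40 most abundant of the 94 receptor genes, ordered by mean over 6 mice; circles are the 3 wild-type mice and triangles the 3 Cnpy1 knockout mice. Vmn1r86 was highest, and the points of the 2 genotypes overlap for nearly all genes.

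For some receptors TPM and reads differed by unlike amounts between mice. Vmn1r74, a V1rg receptor, had 1.46 TPM in wild-type mouse 3 and 0.324 to 0.435 TPM in the other mice, while its reads, scaled between libraries as CPM (reads relative to the scaled library total), were 2.51 CPM there and 1.72 to 2.07 CPM elsewhere. In wild-type mouse 3, 41 of its reads were assigned to the 915-base coding transcript, which had 0 reads in each of the other 5 mice, and the rest to a 6608-base transcript. Vmn1r81, another V1rg receptor, showed the reverse. It had 1.25 TPM in wild-type mouse 3 and 2.49 to 3.36 TPM elsewhere, while its 921-base coding transcript had 0 reads in that mouse and 39 to 64 in the others. Vmn1r86 varied less, with 55.6% to 64.3% of the gene's reads on its main 6378-base transcript in the 6 mice.

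The levels were uneven along the genome. All genes but Vmn1r186 lie on chromosome 7, in 5 groups separated by gaps of over 1 Mb. The first group (Vmn1r55 to Vmn1r65, chr7:5129291-6011010) has 11 genes and held 17.5% of the summed TPM. The second (Vmn1r66 to Vmn1r88, chr7:10272991-13185864) has 22 and held 45.1%. Vmn1r90 stands alone at chr7:14555474-14563506, at 5.49 to 7.30 TPM in the 6 mice. The fourth group (Vmn1r91 to Vmn1r183, chr7:20099680-24063554) has 57 genes, more than any other, but held 21.1% of the TPM. The last (Vmn1r184 and Vmn1r185, chr7:26260334-26618464) held 13.9% with 2 genes.

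Within the fourth group, the 41 genes from Vmn1r91 to Vmn1r160 held 8.85% of the summed TPM and 1.9% of the reads, and 39 of these 41 genes have coding bases only in their models. The 16 genes from Vmn1r167 to Vmn1r183 held 12.3% of the TPM. How far the low levels of the first stretch follow from its short models and shared sequence was not tested. Vmn1r186 lies on the unplaced scaffold GL456219.1 (94186 to 95088) and had 0 reads in all 6 mice. A count of 0 allows up to 3 reads, or 0.0514 CPM in the library where this limit is highest. No sequence of Vmn1r186 was used here, so its likeness to other receptors was not measured. That limit covers counting error only.

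**Figure D2:**
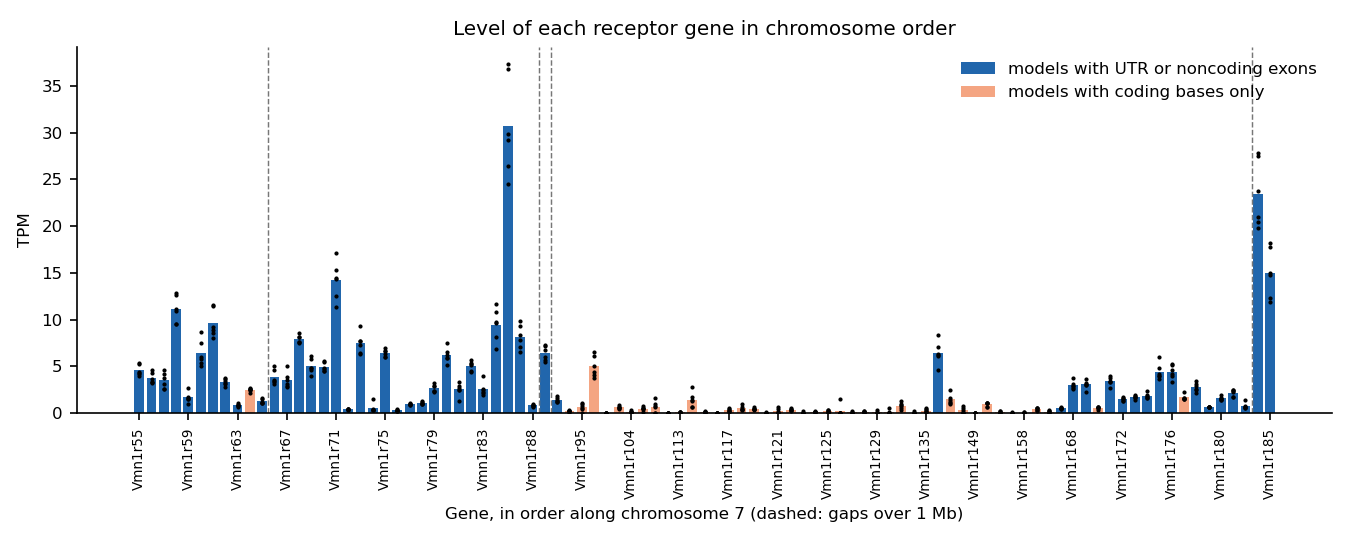
Mean TPM over 6 mice (bars) and TPM of each mouse (dots) for the 93 genes in order along chromosome 7; blue bars are genes whose models have untranslated or noncoding exons, orange bars genes with coding bases only. High bars sit in the first, second and last group, and most orange bars in the long group from Vmn1r91 to Vmn1r183 are near 0.

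By the older subfamily names in the reference tables, 17 genes were V1rd, 11 V1rg, 5 V1re and 1 V1rk (Vmn1r87), Vmn1r70 carried names of V1rd and V1rl, and 59 had no letter. The V1re receptors (Vmn1r66, Vmn1r67, Vmn1r69, Vmn1r71 and Vmn1r185) had 15% of the summed TPM with 5 genes, the V1rg receptors 15.2% with 11 and the V1rd receptors 16.4% with 17. The highest V1rg receptor was Vmn1r84, at 6.80, 9.69 and 10.8 TPM in the wild types and 9.58, 8.15 and 11.7 TPM in the knockouts. Vmn1r87 had 6.57 to 9.35 TPM in the wild types and 7.77 to 9.89 TPM in the knockouts, and Vmn1r70 had 4.49 to 5.60 and 4.47 to 5.42 TPM.

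Single genes of near-identical groups varied more between mice than the group's sum, as a sum over genes with few reads also does by counting alone. Genes were joined where at least 50% of the 31-base words of the smaller one occurred in the other. The largest such group has 16 genes, among them Vmn1r91, Vmn1r95, Vmn1r100, Vmn1r104, Vmn1r107, Vmn1r130 and Vmn1r143. The coefficient of variation (CV) of CPM (scaled between libraries by the TMM method) over the 6 mice had a median of 67.7% for its single genes and was 16.4% for their summed reads. Counting error alone would give 48.6% and 4.46%. In a group of 9 with Vmn1r120 and Vmn1r94 the CVs were 35.1% and 16.4%, where counting error would give 28.1% and 8.14%. Whether reads of 1 gene were assigned to another was not tested.

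Vmn1r95 and Vmn1r143, which share 96.5% of their words, show the values of single mice. Vmn1r95 had 31, 0 and 38 reads in the wild types and 19, 16 and 39 in the knockouts. Vmn1r143 had 0, 26 and 0 reads in the wild types and 4, 11 and 18 in the knockouts. The wild-type mouse with 0 reads on Vmn1r95 was the only wild type with reads on Vmn1r143, while in the knockouts both genes had reads in each mouse and were highest in mouse 3. Vmn1r100, the gene of this group with the highest TPM, kept to a narrower range, with 2.40, 2.34 and 3.23 CPM in the wild types and 2.89, 2.40 and 3.46 CPM in the knockouts. Its transcript is also that of Vmn1r148, so its reads cover both genes. Outside the group, Vmn1r126, whose words all occur in other genes, had 62 reads in wild-type mouse 1 and 0 in the other 5 mice. Its near-copy Vmn1r114, with 99.8% coding identity, had 58, 23 and 26 reads in the wild types and 65, 48 and 105 in the knockouts.

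Across the set, the 23 genes at 0 in some but not all mice were all of the coding-only class. The median CV was 64.2% in that class, where counting error alone would give 35.4%, and 11.5% in the other, where it would give 4.61%. For 33 genes under other names (19 pseudogenes and 14 coding genes), at least 50% of their own 31-base words occur in receptors of this set, and 21 of them had reads. Summed over these genes, the level was 13.2 ± 1.71 CPM in the wild types and 13.6 ± 2.14 CPM in the knockouts (SD, n = 3; without TMM scaling).

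**Figure D3:**
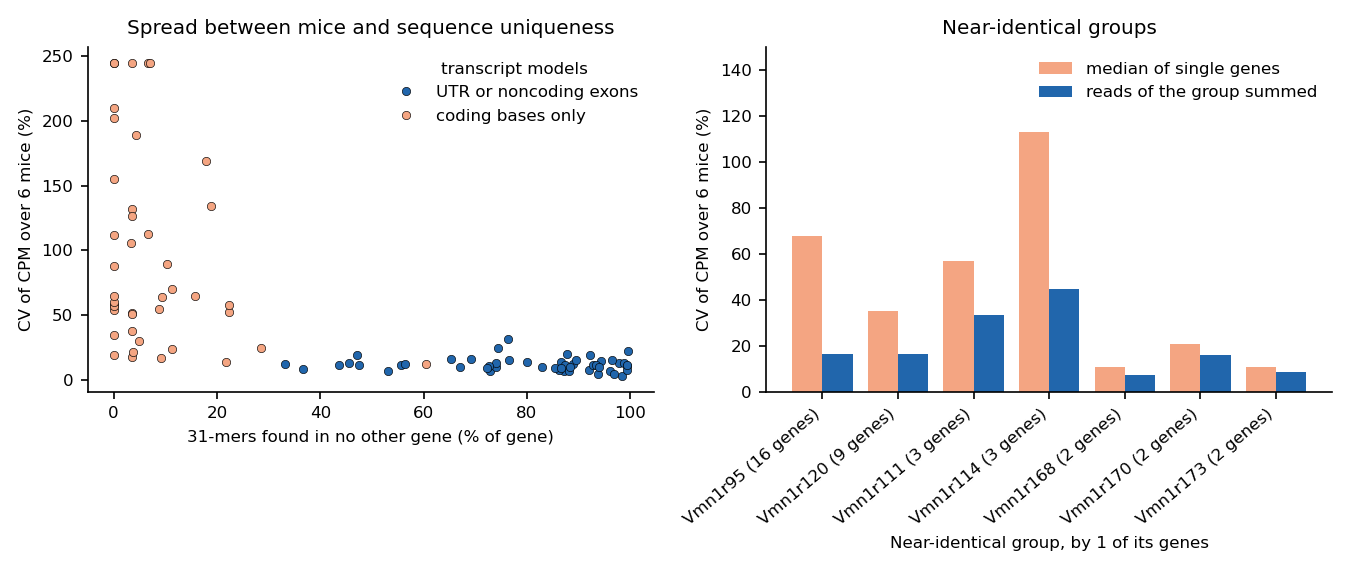
Left, CV of CPM over 6 mice against the share of 31-base words found in no other gene, for the 93 genes with reads, in 2 classes of transcript model. Right, for near-identical groups, the median CV of the single genes (orange) and the CV of their summed reads (blue), which is lower in each group drawn, as counting alone also makes it; the group that holds Vmn1r95 went from 67.7% to 16.4%.

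The comparison of the genotypes asked whether these receptors changed in mice without Cnpy1, which codes for a Canopy protein of the endoplasmic reticulum. Cnpy1 itself was at 303 ± 22.5 CPM in the wild types and 73.7 ± 5.66 in the knockouts (SD, n = 3), a log2 fold change of -2.04. None of the 70 receptors with enough reads to be tested was called at an adjusted p under 0.05 (edgeR's quasi-likelihood test, Benjamini-Hochberg adjustment over 16692 genes), where 0.767% of all genes were called. DESeq2 called 2 of them, Vmn1r57 and Vmn1r71, where it called 2.34% of all genes it tested. At an unadjusted p under 0.05 there were 8 receptors, or 11.4%, against 10.5% of all genes. All 8 had higher means in the knockouts, where 4.55% of all genes passed in that direction. The log2 fold change was above 0 for 58 and below 0 for 12 of the 70, where 52.3% of all genes were above 0. Its median was 0.13 over the tested receptors and 0.01 over all genes. The receptors were measured in the same 6 mice and are not independent of each other, so these counts and medians only describe the set.

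All knockout values lay above all wild-type values for 6 of the 70 receptors, or 8.57%, against 7.23% of all genes: Vmn1r57, Vmn1r71, Vmn1r81, Vmn1r82, Vmn1r139 and Vmn1r175. The reverse was found for 0 receptors and for 8.95% of all genes. The other 24 receptors, all of the coding-only class, had at most 62 reads in any library and were not tested.

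Vmn1r57 had the lowest adjusted p of the set. Its CPM were 4.89, 4.35 and 5.31 in the wild types and 8.20, 7.39 and 6.92 in the knockouts, with 271 to 491 reads per mouse. The groups did not overlap. The log2 fold change was 0.63 (SE 0.11), with an adjusted p of 0.0562 in edgeR's quasi-likelihood test. Adjusted p was 0.000827 with DESeq2 and 0.0368 with edgeR and no filter on low counts, a setting that called 0.699% of all genes, so that the call depends on the method, and over all settings it lay between 0.000827 and 0.233 with log2 fold changes from 0.56 to 0.70.

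Vmn1r59 lies near Vmn1r57 in the first group and is its closest relative. Its CPM were 3.16, 1.86 and 2.11 in the wild types and 4.44, 3.45 and 2.76 in the knockouts, which overlap. Its log2 fold change was 0.58 (SE 0.24), with an adjusted p of 0.458 in the same edgeR test, and over all settings the log2 fold change lay between 0.38 and 0.84 and the adjusted p between 0.207 and 0.855. Of the words of Vmn1r57, 11.6% also occur in Vmn1r59 and 74.4% in no other gene. Summed over both genes, the level was 8.05, 6.21 and 7.42 CPM in the wild types and 12.6, 10.8 and 9.67 CPM in the knockouts, which do not overlap.

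Vmn1r71 and Vmn1r81 were the next lowest in adjusted p. Vmn1r81 had 13, 13.4 and 12.4 CPM in the wild types and 15.6, 15.1 and 16.7 CPM in the knockouts. The difference was 0.29 on the log2 scale (SE 0.07), with an edgeR adjusted p of 0.163. Vmn1r71 had 45.8, 44.8 and 54.4 CPM in the wild types and 56.4, 62.8 and 61.4 CPM in the knockouts. The difference was 0.32 on the log2 scale (SE 0.08), with an adjusted p of 0.203 in edgeR and 0.0250 in DESeq2. For both genes the lowest knockout was above the highest wild type.

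The other 3 receptors without overlap had smaller differences or fewer reads. Vmn1r82, a V1rg receptor with 99.4% of its words found in no other gene, had 14.6, 13.6 and 16.2 CPM in the wild types and 18.1, 16.4 and 17.6 CPM in the knockouts (log2 fold change 0.23, SE 0.08). Vmn1r175 had 8.68, 7.84 and 8.26 CPM in the wild types and 10.3, 8.74 and 11.9 CPM in the knockouts (0.32, SE 0.12). Vmn1r139 had 2.82, 1.86 and 2.55 CPM in the wild types and 3.11, 2.94 and 3.37 CPM in the knockouts (0.38, SE 0.18). In all 3 the lowest knockout was only just above the highest wild type. Vmn1r175 shares most of its coding sequence with Vmn1r170 (98.1% identity), which had 20, 22 and 20 reads in the wild types and 12, 25 and 25 in the knockouts.

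All 5 V1re receptors had log2 fold changes above 0, from 0.04 to 0.39, with a median of 0.26, where 52.3% of all genes were above 0. In edgeR's test 0 of the 5 were called, where 0.767% of all genes were, and DESeq2 called Vmn1r71. Vmn1r67 had the highest, with 5.59, 4.50 and 5.54 CPM in the wild types and 5.09, 7.40 and 7.99 CPM in the knockouts. These groups overlap through knockout mouse 1. Vmn1r185 had 35.5, 31.8 and 43.5 CPM in the wild types and 42.5, 44.2 and 46.1 CPM in the knockouts, with a log2 fold change of 0.26 (SE 0.11). The V1rg receptors were above 0 for 9 and below 0 for 2 of 11 (median 0.08), and the V1rd receptors for 15 and 2 of 17 (median 0.11).

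The largest log2 fold change of all, 1.13 (SE 0.41; edgeR adjusted p = 0.377), was that of Vmn1r114, which, like Vmn1r126, has no 31-base word of its own. Summed with its near-copies Vmn1r121 and Vmn1r126, it had 120, 45 and 42 reads in the wild types and 65, 53 and 110 in the knockouts, which overlap widely. The lowest log2 fold changes among receptors with at least 1 CPM were those of Vmn1r74 (-0.25, SE 0.17), Vmn1r167 (-0.12, SE 0.24) and Vmn1r173 (-0.07, SE 0.15).

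For the most abundant receptors the interval of the difference was narrow. The log2 fold change of Vmn1r86 was 0.05, with a 95% interval from -0.17 to 0.27, and that of Vmn1r184 was 0.11, from -0.10 to 0.33. Over the 12 genes highest in TPM the intervals lay between -0.17 and 0.78. For 57 of the 70 tested receptors the interval stayed within 1 of 0 on the log2 scale, a change of less than one doubling. The wide intervals were those of weakly measured genes, as for Vmn1r143, from -2.40 to 3.20.

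**Figure D4:**
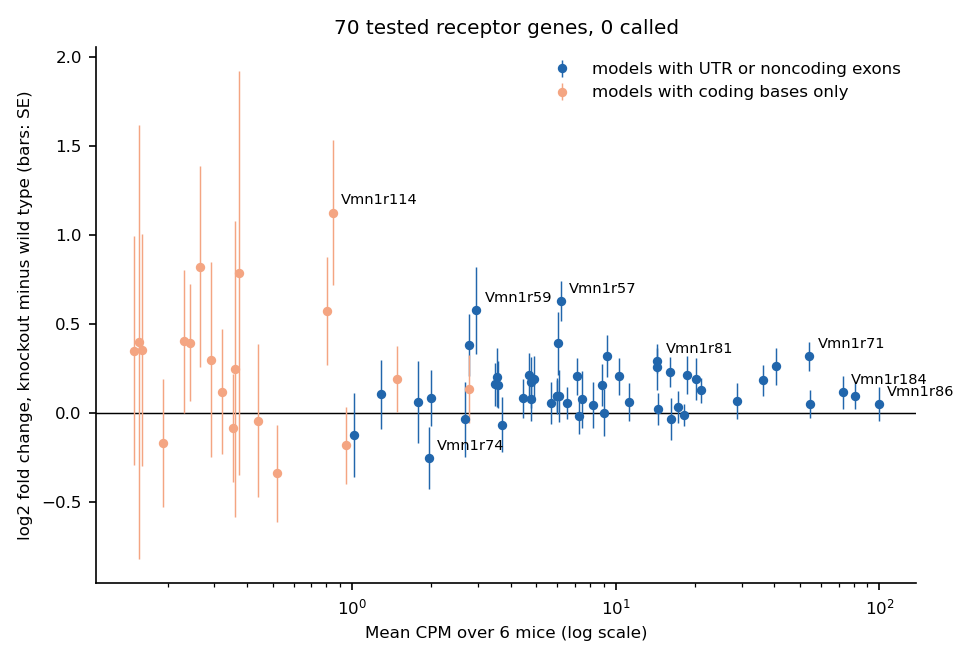
Log2 fold change of knockout minus wild type (points, with SE bars) against mean CPM over 6 mice (log scale) for the 70 tested receptors, in 2 classes of transcript model. Most points lie slightly above 0, the SE grows at low CPM, and Vmn1r57 sits apart from genes of like level at 0.63.

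The summed level of the 94 receptors overlapped between the genotypes. It was 731, 758 and 904 CPM (reads over the library's gene total, no TMM factor) in the wild types and 817, 796 and 956 in the knockouts, so 798 ± 93.2 against 856 ± 86.8 (SD, n = 3). The log2 ratio was 0.10, smaller than the spread between the wild types (SD 0.16 on the log2 scale). It depended on single mice, at -0.02 among the males alone, 0.02 without knockout mouse 3 and 0.20, above that SD, without wild-type mouse 3. Of all V1R reads, this set held 31% ± 0.207 in the wild types and 31.7% ± 0.448 in the knockouts. The shares of single mice, 30.99%, 30.76% and 31.17% against 31.93%, 32.01% and 31.20%, did not overlap, with a gap smaller than the spread within either genotype.

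Among the remaining V1R genes, Vmn1r1 to Vmn1r54 had 32 of 49 tested genes above 0 (median 0.07), and Vmn1r187 and above had 43 of 48 (median 0.13), where 52.3% of all genes were above 0. In edgeR's test 0 were called in either set, where 0.767% of all genes were. Mouse 3 of each genotype was highest in the summed level of each of these sets. Vmn1r85 and Vmn1r89 had log2 fold changes of 0.08 and 0.02.

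**Figure D5:**
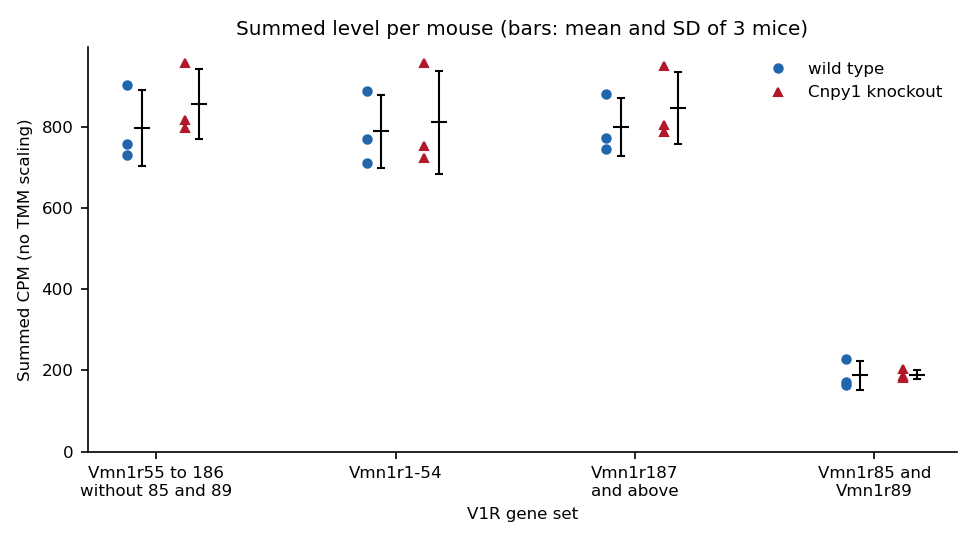
Summed level of 4 sets of V1R genes, in CPM with no TMM factor; circles are wild-type mice, triangles Cnpy1 knockout mice, and bars the mean and SD of 3 mice. The genotypes overlap in each set, and mouse 3 of each genotype is the highest of its group.

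Genes around the receptors gave the setting. Markers of the apical neurons that express V1Rs (Gnai2, Nrp2, Pde4a, Meis2 and Kirrel2) had 0 of 5 called in edgeR's test, where 0.767% of all genes were, and a median log2 fold change of 0.09, and their summed CPM was 1395 to 1467 in the wild types and 1294 to 1510 in the knockouts. Gnai2, the G protein subunit of these neurons, was at 644 ± 33.0 CPM in the wild types and 726 ± 27.4 in the knockouts, 0.17 higher on the log2 scale (SE 0.06), with an edgeR adjusted p of 0.377. Kirrel2, an adhesion molecule, lay in the other direction, at 301 ± 46.6 and 197 ± 31.7 CPM, with all knockouts below all wild types (log2 fold change -0.61, SE 0.14; edgeR adjusted p = 0.143), and Pde4a was at -0.07. Markers of the basal neurons, which express V2Rs, had 1 of 5 called lower, where 0.767% of all genes were called. It was Gnao1, the G protein subunit of the basal layer (log2 fold change -0.41, SE 0.05; edgeR adjusted p = 0.0141). Robo2, Tfap2e and Gng8 were lower without a call, and Kirrel3 was at 0.002, with overlap. The summed CPM of the 5 basal markers was 634 to 707 in the wild types and 487 to 563 in the knockouts, which do not overlap.

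Among 6 genes shared by mature vomeronasal neurons, 1 was called lower in edgeR's test, Stom (log2 fold change -0.36), where 0.767% of all genes were called. The median of the 6 was -0.28. Their summed CPM was 4544 to 5087 in the wild types and 3620 to 4348 in the knockouts. All knockouts lay below all wild types for Stom, Trpc2, Omp, Ano2 and Gnb1, as for 8.95% of all genes. Ano1 was at 0.05, with overlap. Among progenitor and immature neuron genes 1 of 6 was called higher, Top2a, a topoisomerase of dividing cells (log2 fold change 0.40; edgeR adjusted p = 0.0419). Of markers of main olfactory neurons, supporting cells, immune cells and blood, 0 were called in edgeR's test, where 0.767% of all genes were. Some main olfactory markers were lowest in knockout mouse 3, with Gnal at 19.3 CPM there and 34.4 to 55.7 CPM in the other mice, and Cnga2 at 8.82 CPM there and 13 to 22 CPM elsewhere. What part these differences have in the levels of the receptors was not tested.

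Of the signalling chain downstream of V1Rs, 0 of 13 genes were called in edgeR's test, where 0.767% of all genes were, and the median log2 fold change was -0.22, beside 0.01 over all genes. Trpc2, Omp, Ano1, Ano2 and Gnb1 of this chain are also among the genes shared by mature neurons above. Gnai2 and Pde4a are also among the apical markers, so the medians of these lists are not separate results. Trpc2, the channel that carries the sensory current, had 312 ± 28.0 CPM in the wild types and 250 ± 17.2 in the knockouts (log2 fold change -0.32, SE 0.08; edgeR adjusted p = 0.197), and Plcb2, a phospholipase of such chains, had 9.63 ± 0.742 and 7.55 ± 0.795. Itpr3, a calcium release channel, and Gng2, a G protein subunit, lay in the other direction, with log2 fold changes of 0.28 (SE 0.12) and 0.10 (SE 0.09). Of 8 genes for receptor transport, 7 were tested and 0 were called by edgeR, with a median log2 fold change of -0.02. Among them, Calr4 and Calr, calreticulins of the endoplasmic reticulum, were at -0.14 and 0.08, and Rtp4 and Rtp1, receptor transporting proteins, at 0.16 and 0.05. Rtp2, of the same family, was at -0.19 (SE 0.05; edgeR adjusted p = 0.241). For Rtp2 and Calr4 all knockouts lay below all wild types, as for 8.95% of all genes. Of 8 transcription factors and cofactors of neuron identity, such as Bcl11b and Meis2, edgeR called 0.

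Between the sexes, 0 of the 70 receptors were called in the fit with genotype and sex (edgeR's quasi-likelihood test), where 0.0419% of all genes were, and DESeq2 also called 0. At an unadjusted p under 0.05 there were 3, Vmn1r73, Vmn1r143 and Vmn1r59, where 5.48% of all genes passed. Vmn1r73, a V1rg receptor, was at 18.58 and 23.5 CPM in the 2 females and between 16.6 and 18.56 CPM in the 4 males, so that the groups barely separated, with a log2 difference of female minus male of 0.26 (SE 0.07; edgeR adjusted p = 0.856). Both females were above all males for Vmn1r73, Vmn1r79, Vmn1r143 and Vmn1r180, against 6.66% of all genes, and both were below for 0 receptors, against 6.47%. Vmn1r143 is the near-copy of Vmn1r95. A difference of the genotype effect between sexes rests on 1 female per genotype, whose spread is taken from the males, so this comparison is weak. For it, 0 receptors were called, where 0.024% of all genes were, with 7 at an unadjusted p under 0.05, which 4.5% of all genes passed, and a lowest adjusted p of 0.241 in edgeR's test.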

How the data were processed

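Each library's table, as the authors deposited it, holds an estimated count and a TPM value for each of 117081 transcripts, per the file headers; the estimated counts need not be whole, since a read that fits several transcripts is divided among them. Trim Galore 0.6.6, Salmon 1.9.0, DESeq2 and mm10/GRCm38 are named in the submitters' processing notes. Transcripts were joined to genes in GENCODE M21 (GRCm38) by identifier: 116021 matched, and the 1060 others, with 0.270% of the reads, were left out. Gene sums of the estimated counts were rounded to whole numbers, and deposited TPM were summed per gene.

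The genotypes were compared with edgeR 4.0.16 in R 4.3.3 (quasi-likelihood test, TMM scaling, filterByExpr, genotype as the only term, Benjamini-Hochberg over 16692 genes), with DESeq2 1.42.0 and limma 3.58.1 (voom) as alternatives. Sex was tested with genotype in the fit. Genes with an adjusted p under 0.05 are described as called. The SE is the log2 fold change over the square root of F, and intervals use the test's degrees of freedom at 95%. Single genes and marker sums are TMM-scaled CPM; sums over receptors are CPM relative to all reads in genes. On data simulated for this comparison with 16762 genes, 98% of genes changed by 1 and 100% of those changed by 2 on the log2 scale were recovered, and 5.26% of calls were false. Each simulated gene had the same biological CV, 12.8%, and genes with few reads were not among those changed. Reads were not divided among near-identical genes, so these shares do not apply to receptors with few or shared reads. A replicate is 1 mouse with 1 library.

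The receptors, gene lists and tests were chosen with earlier results of these data known. Named receptors are the 12 highest in TPM, the highest of each subfamily, those with the smallest unadjusted p (6 for genotype, 4 for sex), the 3 highest and 3 lowest fold changes with at least 1 CPM, members of the 3 near-identical groups with the most reads, and those next to the low-count filter; any others were chosen with their values in view. The low-count filter kept Vmn1r135, at a mean of 0.149 CPM, and left out Vmn1r126, at 0.155 CPM.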

Additional observations from a re-analysis of the deposited data

How the results depend on the processing

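In edgeR's quasi-likelihood test 0 receptors were called between genotypes and 128 of all genes. DESeq2 called 2 receptors (Vmn1r57 and Vmn1r71) and 404 genes, and edgeR without the filter on low counts called 1 receptor (Vmn1r57). With males only, 77 genes and 0 receptors were called. Leaving out each mouse in turn gave 70 to 101 genes and 0 receptors. 0 receptors were also called, beside all genes called, with size factors as in DESeq2 (128), no scaling (97), limma-voom (121), effective lengths (112), sex as a term (101) and summed near-identical genes (128). Between the sexes 0 receptors were called under all alternatives run, in which few of all genes were, from 4 without knockout mouse 2 to 22 with the replicate block in edgeR and 61 in DESeq2. The main fit did not pair mice by the replicate numbers of the labels. Correlations of their deviations from the group means were 0.28, -0.058 and 0.31 for same-numbered mice. For mice with different numbers they lay between -0.41 and 0.20. Whether same-numbered mice share an effect was not tested. With the replicate number as a block, 155 genes and 0 receptors were called, and the median log2 fold change of the receptors was 0.13.

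The median of the receptors lay between 0.09 and 0.19 in all settings. The log2 ratio of their summed level was 0.13 with TMM scaling, 0.08 in TPM, 0.20 without wild-type mouse 3, 0.02 without knockout mouse 3 and -0.02 in males. With the copies under other names added, an alternative chosen after seeing the data, it was 0.10. Of 34 named receptors with a test, 14 changed sign in at least 1 of 16 alternatives, all of them without a call, among them Vmn1r86. The depth limits the genes with few reads of their own, and the division of reads among near-identical genes cannot be checked without the reads.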

Other observations

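The main transcript's share of a receptor's reads varied little between mice for some genes and widely for others. For Vmn1r75, a V1rg receptor, the main transcript of 6508 bases held 77.6%, 77.5% and 77.6% of the gene's reads in the wild types and 80.4%, 80.1% and 80.4% in the knockouts. The gene had 1052 to 1360 reads per mouse and a log2 fold change of -0.01. This gene was chosen after its values were seen, and no test was made. Its other transcripts varied more, as for 1 of 4336 bases with 10.6%, 11.2% and 7.6% in the wild types. For Vmn1r176 the main transcript of 2955 bases held 43.3%, 61.1% and 64.2% of the reads in the wild types and 79.8%, 79.0% and 61.6% in the knockouts, which overlap.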
